A study of Mus musculus with 6 samples.

Results

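Collagens and the enzymes that modify them were followed in As4.1 cells, an established mouse line from a renin-expressing kidney tumour of mice that carried simian virus large T antigen under renin regulatory sequences, under an interleukin, under hydrogen peroxide and under vehicle. The members are the probe sets annotated to a single gene that is a collagen chain (a symbol of the form Col1a1), a lysyl oxidase (Lox, Loxl1, Loxl3 and Loxl4, with Loxl2 not analysed here), a lysyl hydroxylase (Plod1 to Plod3), a prolyl 4-hydroxylase alpha subunit (P4ha1 to P4ha3), a prolyl 3-hydroxylase (P3h1, and P3h2, the present name of Leprel1) or a procollagen C-proteinase enhancer (Pcolce and Pcolce2). They numbered 105 of the 45037 probe sets on the array without controls, and stood for 56 genes, of which 42 are collagen chains and 14 are enzymes or enhancers. Each of the 3 groups held 2 samples, numbered 1 and 2 in their titles and read here as separate cultures. Each sample had 1 Affymetrix mouse array, 6 arrays in all. The labels name neither the interleukin nor any dose or time, so the groups are known only as interleukin, hydrogen peroxide (a reactive oxygen species) and vehicle. All 3 groups share 1 established tumour line, so the p-values below measure at most the spread between cultures of that line.

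Collagens are secreted matrix proteins built from chains wound into a helix, whose proline and lysine residues are hydroxylated in the endoplasmic reticulum before export. Fibrillar collagens of types I, III and V form the banded fibres of connective tissue, type IV forms the sheets of basement membranes, type VI forms beaded filaments around cells, and the fibril-associated collagens (FACIT) decorate the fibres. Prolyl 4-hydroxylases stabilise the helix, lysyl hydroxylases prepare lysines for sugar addition and crosslinking, and lysyl oxidases crosslink the fibres outside the cell. Several of the enzyme genes, among them those of lysyl oxidase and prolyl 4-hydroxylase, are known targets of the hypoxia-inducible factor.

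The promoter windows of 5 members the results turn on are shown from RefSeq (mouse build GRCm38.p6), each running from 250 bases before to 50 bases after the annotated start and read 5′ to 3′ along the gene. Capitals mark matches on either strand to TATAAA for the TATA box, CCAAT for the box of that name, GGGCGG for the GC box, ACGTG for the core of the hypoxia response element and GGGNNTTCC for an NF-kappaB type site. No match overlapped one of another motif in these windows. Col1a2 and Col3a1 are given because both fell under hydrogen peroxide while Col3a1 rose under interleukin, with Col1a2 at chr6:4505368-4505667 and Col3a1 at chr1:45311288-45311587, both on the plus strand.
Col1a2: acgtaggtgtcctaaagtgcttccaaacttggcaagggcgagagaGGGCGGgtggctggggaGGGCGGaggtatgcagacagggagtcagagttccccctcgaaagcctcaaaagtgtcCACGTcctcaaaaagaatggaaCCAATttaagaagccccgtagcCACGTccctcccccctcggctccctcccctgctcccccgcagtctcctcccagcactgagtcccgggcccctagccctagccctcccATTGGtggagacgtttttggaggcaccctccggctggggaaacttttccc
Col3a1: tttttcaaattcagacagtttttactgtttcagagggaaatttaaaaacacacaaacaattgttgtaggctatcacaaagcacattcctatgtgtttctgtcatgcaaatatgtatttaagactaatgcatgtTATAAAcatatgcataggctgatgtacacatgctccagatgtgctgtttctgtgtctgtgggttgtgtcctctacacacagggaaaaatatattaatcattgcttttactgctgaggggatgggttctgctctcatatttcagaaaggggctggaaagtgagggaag
The Col4a2 window, at chr8:11312555-11312854 on the plus strand, shares 78 bases with that of its neighbour Col4a1, which is read the opposite way.
Col4a2: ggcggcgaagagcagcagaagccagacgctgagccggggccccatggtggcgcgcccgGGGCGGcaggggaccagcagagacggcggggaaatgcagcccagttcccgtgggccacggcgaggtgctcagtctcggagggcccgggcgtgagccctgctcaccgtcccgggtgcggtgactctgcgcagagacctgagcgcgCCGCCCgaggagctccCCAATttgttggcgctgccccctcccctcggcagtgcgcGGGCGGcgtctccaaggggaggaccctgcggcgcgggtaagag
P4ha1, at chr10:59323046-59323345, and P4ha2, at chr11:54100674-54100973, both on the plus strand, encode alternative catalytic subunits of the same enzyme and gave different calls under interleukin.
P4ha1: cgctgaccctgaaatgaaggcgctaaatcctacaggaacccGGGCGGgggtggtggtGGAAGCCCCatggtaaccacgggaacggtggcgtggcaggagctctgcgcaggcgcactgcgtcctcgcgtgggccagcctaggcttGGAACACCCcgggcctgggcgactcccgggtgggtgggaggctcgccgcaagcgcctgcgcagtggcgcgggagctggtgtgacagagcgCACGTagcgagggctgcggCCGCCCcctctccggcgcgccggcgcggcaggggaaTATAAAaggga
P4ha2: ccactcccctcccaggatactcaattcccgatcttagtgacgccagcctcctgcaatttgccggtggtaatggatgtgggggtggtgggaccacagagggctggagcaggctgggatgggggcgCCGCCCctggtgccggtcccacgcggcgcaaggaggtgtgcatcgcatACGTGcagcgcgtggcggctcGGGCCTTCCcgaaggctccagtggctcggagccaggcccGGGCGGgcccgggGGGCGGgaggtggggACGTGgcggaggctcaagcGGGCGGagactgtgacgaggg
Of the 35 member genes tested below, 25 had a window in the table, with 28 windows in all. The 32851 windows of all genes were not chosen by signal, whereas the member windows are of tested genes only. The shares given here therefore compare unlike sets. GC boxes were in 22 of these 28 windows (78.6%), against 35.7% of the 32851 windows of all genes. The hypoxia core was in 7 of 28 (25%, against 19.6%), the NF-kappaB type site in 4 (14.3%, against 5.8%), the CCAAT box in 10 (35.7%, against 37.4%) and the TATA box in 4 (14.3%, against 13.6%). The window of Col1a2 holds 2 CCAAT and 2 hypoxia core matches, that of Col3a1 only a TATA match among the motifs searched, and that of P4ha2 2 hypoxia core matches and 1 NF-kappaB type match. The window of P4ha1 holds 1 hypoxia core match and 2 NF-kappaB type matches. These are letter matches, with no binding measured here.

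All values are linear MAS5 signals, and the arrays had median signals of 192.2 to 232.3. Correlations of log2 signal over the tested probe sets were 0.981 to 0.987 within groups and 0.9535 to 0.9753 between them. For beta-actin the 3' over 5' control ratio, which grows as RNA is degraded or copied incompletely, was 1.46 and 1.55 with interleukin, 1.35 and 1.32 with hydrogen peroxide, and 1.22 and 1.26 with vehicle. For Tfrc it was 3.05 and 3.95, 3.54 and 2.30, and 1.85 and 2.14, with interleukin, hydrogen peroxide and vehicle in that order, and the part of these ratios in the results was not tested. In bulk RNA, fewer cells of a type and less RNA per cell cannot be told apart. Only probe sets whose geometric mean signal over the 6 arrays reached 193.7 were tested, which kept 58 member probe sets and 35 member genes, 22 of them collagens and 13 enzymes or enhancers. Each gene is given by its brightest tested probe set unless another is named. Log2 changes are fitted by limma with their standard error (SE), n = 2 arrays per group. A gene is called at a Benjamini-Hochberg adjusted p under 0.05 over all 22519 tested probe sets. Where settings that lost a gene its call are listed below, a fit without a variance trend on signal and a 2-fold minimum are left out. The genes that kept their calls without the trend are named for each comparison.

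Under interleukin against vehicle 12 of the 35 member genes rose, 3 fell and 20 did not pass, so that 34.3% rose, against 9.78% of all 10892 tested genes, and 8.57% fell, against 6.61%. The genes that rose were the collagens Col3a1, Col5a2, Col5a3, Col12a1, Col18a1 and Col27a1 and the enzyme genes Lox, Loxl1, Plod3, P4ha2, P4ha3 and P3h2, and those that fell were the type VI chains Col6a1, Col6a2 and Col6a3. Of these, Col18a1 and Col27a1 had vehicle means below the level set for testing and reached it only through treated arrays. Their place in the counts, here and below, is therefore not independent of the filter. The median log2 change of the 35 was 0.17, that of all tested genes 0.03. The SE was smaller for bright probe sets, such as 0.08 for Col6a2, than for dim ones, such as 0.33 for Col27a1. The shares of all tested genes, here and below, were not matched for signal. The part of signal level in the differences between shares was not tested. By probe set, 16 of 58 rose and 5 fell, against 7.58% and 8.52% of all probe sets. In limma with the variance modelled without a trend on signal, 5 rose (Col3a1, Col5a3, Col27a1, P4ha2 and P3h2) and 1 fell (Col6a3). Without vehicle array 1 or interleukin array 2, 7 member genes rose. The number that fell was 1 without vehicle array 2, without interleukin array 1 or without interleukin array 2.

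Under hydrogen peroxide against vehicle more members fell than rose. Of 35 member genes 2 rose (Col18a1 and P4ha3), 6 fell (Col1a1, Col1a2, Col3a1, Col14a1, Lox and Pcolce) and 27 did not pass. Thus 17.1% fell, against 2.91% of all tested genes, and 5.71% rose, against 4.08%. The median log2 change of the members was -0.23 and that of all tested genes 0.06. By probe set, 3 of 58 rose and 12 fell, against 3.05% and 2.65% of all probe sets. Among all probe sets called, 53.5% were higher, but 40.6% after centring each array on its 75th percentile, where 2 member genes rose and 8 fell. Without a trend on signal limma called only 57 of 22519 probe sets for hydrogen peroxide. Of the member genes 1 rose (Col18a1) and 0 fell, with 5 higher and 9 lower at an unadjusted p under 0.05 by limma. The share of all tested genes at that unadjusted threshold was not counted, here or below. Such counts therefore have no background to be read against. The number of member genes that rose was 1 without vehicle array 2, without hydrogen peroxide array 1 or without hydrogen peroxide array 2, and 4 fell without vehicle array 1 or without vehicle array 2.

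Set directly against each other, interleukin was higher than hydrogen peroxide in 16 and lower in 2 of the 35 member genes, 45.7% and 5.71%, against 6.30% and 4.06% of all tested genes. This contrast shares its arrays with the other comparisons and is the test of the difference between the treatments. The 16 comprised 9 collagens (Col1a1, Col1a2, Col3a1, Col5a2, Col5a3, Col4a2, Col12a1, Col14a1 and Col16a1) and 7 enzyme or enhancer genes (Lox, Loxl1, Plod1, Plod2, Plod3, P4ha2 and Pcolce). Lower with interleukin were Col6a3 and Col18a1. In limma without a trend on signal only Col3a1, Col5a3, Col14a1, Lox and P4ha2 passed, all higher with interleukin. By probe set, 24 of 58 were higher and 3 lower, against 4.95% and 3.87% of all probe sets. The median log2 difference was 0.42, that of all tested genes -0.04. Fewer passed in either direction with hydrogen peroxide array 2 or interleukin array 2 left out. In limma without a trend on signal the numbers were 5 higher and 0 lower, with 18 higher and 3 lower at an unadjusted p under 0.05. Without hydrogen peroxide array 1 or without interleukin array 1, 1 was lower.

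**Figure D1:**
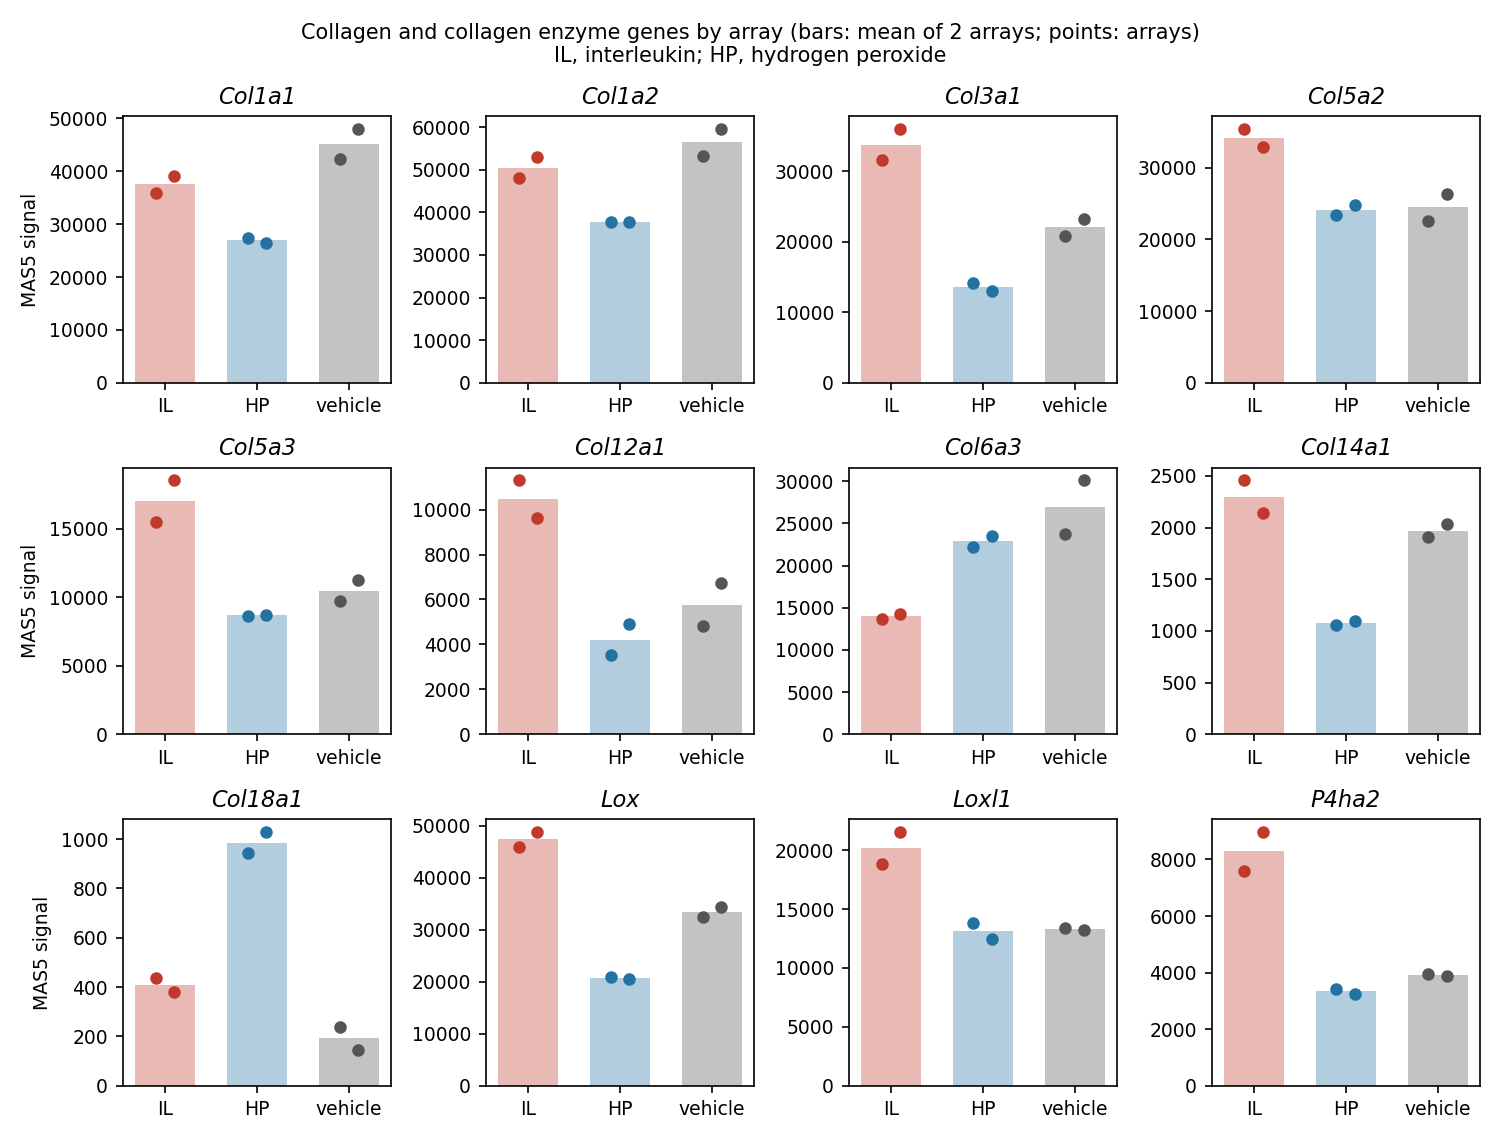
MAS5 signal (linear scale) of 12 member genes on each array. Bars are the mean of 2 arrays and points the arrays of the interleukin (IL), hydrogen peroxide (HP) and vehicle groups; Col3a1 and Lox are highest with interleukin and lowest with hydrogen peroxide, and Col18a1 is highest with hydrogen peroxide.

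The chains of type I collagen, the main fibrous protein of connective tissue, were lower under hydrogen peroxide. Col1a1 had signals of 35930.1 and 39096 under interleukin, 27476 and 26449 under hydrogen peroxide, and 42337 and 48001 with vehicle. No hydrogen peroxide array overlapped an array of another group, and the interleukin arrays also lay below the vehicle arrays. Col1a1 fell under hydrogen peroxide (log2 -0.74 ± 0.08, adjusted p = 0.00130), and under interleukin its change was -0.27 ± 0.08 and did not pass (adjusted p = 0.0535). That interleukin value passed with a stricter filter on signal (adjusted p = 0.0456), with a replicate block (0.0488) and with 1 probe set per gene (0.0380). Its second probe set fell too under hydrogen peroxide (log2 -0.65 ± 0.12, adjusted p = 0.0111).

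Col1a2, the partner chain of Col1a1, had 48059 and 52906 under interleukin, 37642 and 37816 under hydrogen peroxide, and 53282 and 59557 with vehicle. It fell under hydrogen peroxide (log2 -0.58 ± 0.08, adjusted p = 0.00327) and did not pass under interleukin (-0.16 ± 0.08, adjusted p = 0.202). A second probe set of Col1a2, with 31429 and 29046 under interleukin, 22768 and 22040.4 under hydrogen peroxide, and 35679.8 and 37841 with vehicle, fell under both treatments (log2 -0.28 and -0.71, adjusted p = 0.0317 and 0.00112). The difference between interleukin and hydrogen peroxide passed for both genes, at 0.48 ± 0.08, adjusted p = 0.00559 for Col1a1 and 0.42 ± 0.08, adjusted p = 0.00815 for Col1a2. For Col1a2 it did not pass with hydrogen peroxide array 2 left out (adjusted p = 0.0529) or with interleukin array 2 left out (0.0529). Within each array the log2 ratio of Col1a2 to Col1a1 lay 0.10 and 0.11 above the vehicle mean with interleukin and 0.13 and 0.19 above it with hydrogen peroxide, against 0.01 and -0.01 on the vehicle arrays themselves.

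Type III collagen, encoded by Col3a1 and found beside type I in elastic tissues and vessel walls, moved in opposite directions under the treatments. Its signals were 31591 and 36001 under interleukin, 14115 and 13077 under hydrogen peroxide, and 20873 and 23220.5 with vehicle. The groups did not overlap, with interleukin highest and hydrogen peroxide lowest. Col3a1 rose under interleukin (1.53-fold, log2 0.62 ± 0.09, adjusted p = 0.00172) and fell under hydrogen peroxide (log2 -0.70 ± 0.09, adjusted p = 0.00319), with a difference between them of 1.31 ± 0.09, adjusted p = 1.51e-05. Its second probe set gave 4528 and 5585 under interleukin, 1431 and 1384 under hydrogen peroxide, and 2335 and 2226 with vehicle, log2 changes of 1.14 and -0.70 (adjusted p = 0.000391 and 0.0174). The log2 ratio of Col3a1 to Col1a1 within an array lay 0.85 and 0.92 above the vehicle mean with interleukin and 0.07 and 0.02 above it with hydrogen peroxide (vehicle arrays 0.01 and -0.01). The ratios given here and below were chosen after the values were seen, and with 2 arrays against 2 an exact permutation test cannot go below p = 0.333, so none is tested.

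Type V collagen sits inside type I fibres and limits their width. Col5a2, which lies next to Col3a1 in the RefSeq gene order, had 35406 and 32957 under interleukin, 23444 and 24786 under hydrogen peroxide, and 22644 and 26356 with vehicle. The interleukin arrays lay above all others, and the hydrogen peroxide arrays lay within the range of the vehicle arrays. Col5a2 rose under interleukin (1.40-fold, log2 0.48 ± 0.09, adjusted p = 0.00493), though not with vehicle array 1 left out (adjusted p = 0.0642), and changed by -0.02 ± 0.09 under hydrogen peroxide (adjusted p = 0.929). Col5a3, another type V chain, had 15484 and 18525 under interleukin, 8615 and 8726 under hydrogen peroxide, and 9694 and 11244 with vehicle. It was higher on both interleukin arrays than on any other, rose under interleukin (1.62-fold, log2 0.70 ± 0.11, adjusted p = 0.00220) and differed between the treatments by 0.97 ± 0.11, adjusted p = 0.000399. A dimmer tested probe set of Col5a2 rose more (log2 1.04 ± 0.15, adjusted p = 0.00117) and had 0.47 under hydrogen peroxide (adjusted p = 0.0932).

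Col5a1, the chain common to most type V molecules, had 14186 and 16470.1 under interleukin, 12120.1 and 13275 under hydrogen peroxide, and 14702 and 17053 with vehicle and passed in no comparison. Its change under interleukin was -0.05, with a 95% confidence interval of -0.29 to 0.19, and under hydrogen peroxide -0.32 (-0.56 to -0.08). Its other 2 probe sets did not pass either. Col27a1, a fibrillar collagen of cartilage, had dim signals of 437 and 491 under interleukin, 281 and 306 under hydrogen peroxide, and 127 and 197 with vehicle, and its vehicle mean lay below the level set for testing. It rose under interleukin (log2 1.55 ± 0.33, adjusted p = 0.0101), though not with vehicle array 1 left out (adjusted p = 0.0821) or with interleukin array 2 left out (0.0556). Col11a2, a cartilage chain, had 248 and 190.3 under interleukin, 204 and 328 under hydrogen peroxide, and 169 and 220.0 with vehicle, with overlapping interleukin and vehicle arrays, and did not pass.

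The basement membrane chains Col4a1 and Col4a2, whose promoter windows overlap, were both lowest on the hydrogen peroxide arrays. Col4a1 had 23984 and 25485 under interleukin, 20184 and 18498 under hydrogen peroxide, and 22082 and 27216 with vehicle. Col4a2 had 15998 and 15933 under interleukin, 11585 and 11430.2 under hydrogen peroxide, and 13320.2 and 15652 with vehicle. The interleukin arrays lay within the range of the vehicle arrays for Col4a1 and just above them for Col4a2. Neither passed against vehicle, with log2 changes of 0.01 and 0.14 under interleukin and -0.34 and -0.33 under hydrogen peroxide (adjusted p = 0.0816 and 0.0738). Col4a2 was higher with interleukin than with hydrogen peroxide (0.47 ± 0.10, adjusted p = 0.0122), though not with hydrogen peroxide array 2 left out (adjusted p = 0.0836), and the second probe set of Col4a1 likewise (0.41 ± 0.10, adjusted p = 0.0282), while its brighter one did not pass (0.36 ± 0.10, adjusted p = 0.0613), except in 5 alternatives with adjusted p from 0.0350 to 0.0488. With 1 probe set per gene the hydrogen peroxide changes of Col4a1 and Col4a2 passed (adjusted p = 0.0462 and 0.0449), and that of Col4a2 also did after centring at the 75th percentile (0.0487). The remaining type IV genes, Col4a3 to Col4a6, were too dim to be tested.

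All 3 tested chains of type VI collagen, the filament collagen close to cell surfaces, fell under interleukin, and Col6a3 fell most. Col6a3, the largest of these chains, had 13699 and 14283 under interleukin, 22169.5 and 23574 under hydrogen peroxide, and 23699 and 30112 with vehicle. Both interleukin arrays lay far below the other 4, and the hydrogen peroxide arrays lay below both vehicle arrays. Its log2 change under interleukin was -0.93 ± 0.11, adjusted p = 0.000324. Under hydrogen peroxide it was -0.22 ± 0.11, adjusted p = 0.258, and did not pass. The difference between treatments was -0.71 ± 0.11, adjusted p = 0.00263, and did not pass without a trend on signal.

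Col6a1 had 26041 and 27414 under interleukin, 27124 and 27166 under hydrogen peroxide, and 30536 and 36046 with vehicle. Col6a2, its partner chain and neighbour on the chromosome, had 27189 and 27422 under interleukin, 28369 and 28335 under hydrogen peroxide, and 31540.4 and 34828 with vehicle. In both genes all 4 treated arrays lay below both vehicle arrays by these probe sets. Their changes were smaller than that of Col6a3, log2 -0.31 ± 0.09, adjusted p = 0.0376 for Col6a1 and -0.28 ± 0.08, adjusted p = 0.0318 for Col6a2 under interleukin. In a second bright probe set of Col6a2 the interleukin and vehicle arrays overlapped, and it did not pass (log2 -0.20 ± 0.11, adjusted p = 0.278). The call for Col6a1 was lost with no filter on signal (adjusted p = 0.102), with vehicle array 2 left out (0.311), with hydrogen peroxide array 1 left out (0.0501), with hydrogen peroxide array 2 left out (0.0506), with interleukin array 1 left out (0.136) or with interleukin array 2 left out (0.0651). For Col6a2 it was lost with no filter on signal (adjusted p = 0.0955), with vehicle array 1 left out (0.0629), with vehicle array 2 left out (0.260), with interleukin array 1 left out (0.0863) or with interleukin array 2 left out (0.0703). Under hydrogen peroxide they had -0.29 and -0.23 and did not pass (adjusted p = 0.0847 and 0.112). The log2 ratio of Col6a3 to Col6a1 within an array lay -0.61 and -0.63 from the vehicle mean with interleukin, 0.02 and 0.11 with hydrogen peroxide, and -0.05 and 0.05 on the vehicle arrays.

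Of the 4 tested fibril-associated collagens 3 were higher with interleukin than with hydrogen peroxide. Col12a1, which links fibres in tissues under load, had 11301 and 9638 under interleukin, 3522 and 4888 under hydrogen peroxide, and 4819 and 6718 with vehicle. Both interleukin arrays were above all others, and Col12a1 rose under interleukin (1.83-fold, log2 0.88 ± 0.18, adjusted p = 0.00917), but not with vehicle array 1 left out (adjusted p = 0.0907) or with interleukin array 1 left out (0.0675). Interleukin exceeded hydrogen peroxide by 1.33 ± 0.18, adjusted p = 0.00123. A second, dimmer probe set of Col12a1 did not pass under interleukin (0.35 ± 0.16, adjusted p = 0.171) but did between the treatments (0.76 ± 0.16, adjusted p = 0.0156).

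Col14a1, a regulator of fibre assembly, had 2457 and 2139 under interleukin, 1054 and 1096 under hydrogen peroxide, and 1906 and 2036 with vehicle. Both hydrogen peroxide arrays lay far below the other 4, and the interleukin arrays lay above the vehicle arrays. It fell under hydrogen peroxide (log2 -0.87 ± 0.14, adjusted p = 0.00706), though not with vehicle array 1 left out (adjusted p = 0.0595) or with vehicle array 2 left out (0.0844), did not pass under interleukin (0.22 ± 0.14, adjusted p = 0.335) and differed between the treatments by 1.09 ± 0.14, adjusted p = 0.000858. Its dimmer probe set, with 581 and 800.0 under interleukin, 406 and 479.9 under hydrogen peroxide, and 414 and 794 with vehicle, did not pass in any comparison. Col16a1, a minor fibril-associated chain, had 4798 and 5828 under interleukin, 3520.5 and 3180.3 under hydrogen peroxide, and 3728 and 4164 with vehicle, did not pass against vehicle (0.42 ± 0.13, adjusted p = 0.0513 under interleukin, -0.24 ± 0.13, adjusted p = 0.327 under hydrogen peroxide) and was higher with interleukin than with hydrogen peroxide (0.66 ± 0.13, adjusted p = 0.0109), but not with hydrogen peroxide array 2 left out (adjusted p = 0.0943) or with interleukin array 2 left out (0.0638). Against vehicle its interleukin value passed once the arrays were quantile normalised (adjusted p = 0.0464), under a stricter filter (0.0466), without interleukin array 1 (0.0308) and with 1 probe set per gene (0.0339). Col22a1, a collagen of tissue junctions, lay at 175 to 256 on the 6 arrays and did not pass.

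Col18a1, whose protein carries the fragment endostatin, had the largest log2 change of the 35 tested member genes under hydrogen peroxide. Its signals were 437 and 381 under interleukin, 942 and 1029.8 under hydrogen peroxide, and 239.5 and 143 with vehicle. The 3 groups did not overlap, and the vehicle arrays were dim, with a mean below the level set for testing. Col18a1 rose under hydrogen peroxide (5.32-fold, log2 2.41 ± 0.29, adjusted p = 0.00179) and under interleukin (2.20-fold, log2 1.14 ± 0.29, adjusted p = 0.0233). The hydrogen peroxide call held in all 16 alternatives that tested it, with adjusted p up to 0.0467. The stricter filter on signal left this gene untested. It reached the level set for testing only through its treated arrays, so both folds rest on a dim vehicle signal. The interleukin call was lost with no filter on signal (adjusted p = 0.0580), in a fit of 4 arrays only (0.0508), with vehicle array 2 left out (0.160), with interleukin array 1 left out (0.103) or with interleukin array 2 left out (0.0545). Interleukin minus hydrogen peroxide was -1.27 ± 0.29, adjusted p = 0.0216, a call lost with no filter on signal (adjusted p = 0.0547), with hydrogen peroxide array 1 left out (0.0685), with hydrogen peroxide array 2 left out (0.140), with interleukin array 1 left out (0.0521) or with interleukin array 2 left out (0.102). The second probe set gave 255 and 243 under interleukin, 603 and 676 under hydrogen peroxide, and 163 and 219.5 with vehicle, rose under hydrogen peroxide (log2 1.76 ± 0.30, adjusted p = 0.00873) and did not pass under interleukin (0.40 ± 0.30, adjusted p = 0.406). Its vehicle mean too lay below the level set for testing.

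Col15a1, the other multiplexin and a basement membrane collagen, had 352 and 606 under interleukin, 325 and 269 under hydrogen peroxide, and 549.8 and 526 with vehicle, with the hydrogen peroxide arrays lowest and the interleukin arrays far apart, and passed in no comparison (hydrogen peroxide -0.86 ± 0.30, adjusted p = 0.118). The transmembrane collagen Col23a1 had 1213 and 1118 under interleukin, 1201 and 912 under hydrogen peroxide, and 1519.8 and 1639 with vehicle. All treated arrays lay below the vehicle arrays, but neither change passed (-0.44 ± 0.17, adjusted p = 0.116 under interleukin, -0.59 ± 0.17, adjusted p = 0.0739 under hydrogen peroxide). With 1 probe set per gene the hydrogen peroxide change of Col23a1 passed (adjusted p = 0.0343). A second probe set of Col23a1, with 1127 and 1150.3 under interleukin, 818 and 494 under hydrogen peroxide, and 1512 and 1303 with vehicle, fell under hydrogen peroxide (log2 -1.14 ± 0.23, adjusted p = 0.0183). Col7a1, the anchoring fibril collagen of epithelia, was at 92.7 to 353, and Col8a2, of corneal and vessel networks, at 295 to 428, and neither passed.

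**Figure D2:**
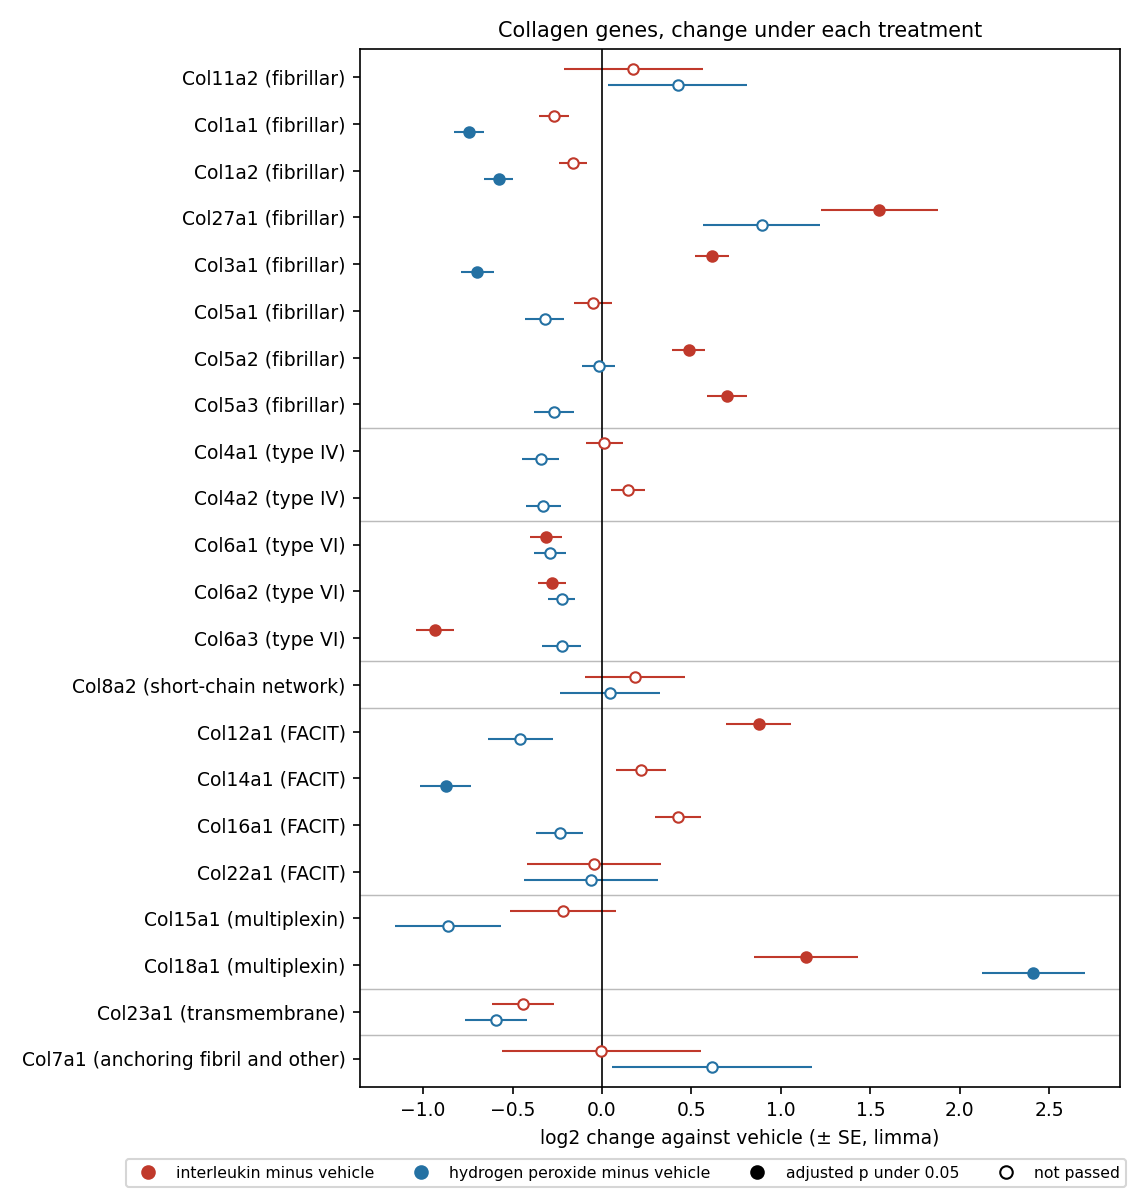
Log2 change against vehicle, with the limma SE, of the 22 tested collagen genes by class, interleukin and hydrogen peroxide each minus vehicle (2 arrays per group); filled points passed an adjusted p of 0.05. Type VI genes lie left of 0 under interleukin, Col3a1 lies on opposite sides under the treatments, and Col18a1 lies farthest right under hydrogen peroxide.

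Among the crosslinking enzymes, Lox, which encodes lysyl oxidase, was also called higher under interleukin and lower under hydrogen peroxide. Its signals were 45949 and 48874 under interleukin, 20929.5 and 20497 under hydrogen peroxide, and 32381 and 34309 with vehicle. The groups were fully apart, interleukin highest and hydrogen peroxide lowest. Lox rose under interleukin (1.42-fold, log2 0.51 ± 0.07, adjusted p = 0.00126), fell under hydrogen peroxide (log2 -0.69 ± 0.07, adjusted p = 0.00112) and differed between the treatments by 1.19 ± 0.07, adjusted p = 5.61e-06. A second bright probe set, with 39117 and 36548 under interleukin, 16293 and 17940.3 under hydrogen peroxide, and 31112 and 31869 with vehicle, gave 0.26 and -0.88 (adjusted p = 0.0480 and 0.000522). Another, dim one did not pass. Without a trend on signal neither call of the brightest Lox probe set against vehicle passed, while the difference between the treatments did.

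Loxl1, a relative of Lox that acts on elastic fibres, had 18846 and 21574 under interleukin, 13828 and 12438 under hydrogen peroxide, and 13420.2 and 13255 with vehicle. It was higher on both interleukin arrays than on any other, while the hydrogen peroxide and vehicle arrays overlapped. Loxl1 rose under interleukin (1.51-fold, log2 0.60 ± 0.10, adjusted p = 0.00231) and had -0.02 ± 0.10, adjusted p = 0.914 under hydrogen peroxide. The log2 ratio of Loxl1 to Lox within an array lay 0.04 and 0.14 from the vehicle mean with interleukin and 0.72 and 0.60 with hydrogen peroxide, against 0.05 and -0.05 on the vehicle arrays. Loxl3, a further lysyl oxidase relative, had 4347 and 3331 under interleukin, 3760.1 and 3891 under hydrogen peroxide, and 3548 and 3772 with vehicle. Loxl4, another, had 381 and 292 under interleukin, 567 and 622 under hydrogen peroxide, and 389 and 463 with vehicle. Loxl3 overlapped between all groups, Loxl4 was highest on the hydrogen peroxide arrays, and neither passed in any comparison. The difference in Loxl4 between the treatments was -0.83 ± 0.25, adjusted p = 0.0692, and it passed with 1 probe set per gene (adjusted p = 0.0384).

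The lysyl hydroxylases, which modify lysines for crosslinking, were all higher with interleukin than with hydrogen peroxide. Plod1 had 10363 and 12281 under interleukin, 8161 and 7476 under hydrogen peroxide, and 9147 and 9712 with vehicle. Plod2, which acts on the ends of collagen chains, had 35997 and 45917 under interleukin, 27355 and 29454 under hydrogen peroxide, and 34379 and 40587 with vehicle. Plod3, which also transfers sugars, had 5826 and 6783 under interleukin, 4489 and 4461 under hydrogen peroxide, and 3927 and 4701 with vehicle. The hydrogen peroxide arrays were below all interleukin arrays in each of these genes. Plod3 rose under interleukin (1.46-fold, log2 0.55 ± 0.13, adjusted p = 0.0144), but not with vehicle array 1 left out (adjusted p = 0.146) or with interleukin array 2 left out (0.0728). Plod1 and Plod2 did not pass under interleukin (0.26 ± 0.11, adjusted p = 0.135 and 0.12 ± 0.12, adjusted p = 0.528), and none of them passed under hydrogen peroxide, where Plod2 had -0.40 ± 0.12, adjusted p = 0.0758. That Plod2 value passed in 6 alternatives, with adjusted p from 0.0257 to 0.0476. The differences between the treatments were 0.53 ± 0.11, adjusted p = 0.0126 for Plod1, 0.52 ± 0.12, adjusted p = 0.0208 for Plod2 and 0.49 ± 0.13, adjusted p = 0.0362 for Plod3. The Plod1 call was lost with hydrogen peroxide array 2 left out (adjusted p = 0.109) or with interleukin array 2 left out (0.0672). That of Plod2 was lost with no filter on signal (adjusted p = 0.0600), with hydrogen peroxide array 1 left out (0.0908), with hydrogen peroxide array 2 left out (0.0657) or with interleukin array 2 left out (0.118). For Plod3 it was lost with no filter on signal (adjusted p = 0.0620), with hydrogen peroxide array 1 left out (0.110), with hydrogen peroxide array 2 left out (0.166) or with interleukin array 2 left out (0.162).

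P4ha2, a prolyl 4-hydroxylase subunit common in matrix-producing cells, had the smallest p of the enzyme genes under interleukin. Its signals were 7595 and 8978 under interleukin, 3429 and 3234 under hydrogen peroxide, and 3965 and 3866 with vehicle. Both interleukin arrays lay far above the other 4, and the hydrogen peroxide arrays lay below the vehicle arrays. P4ha2 rose under interleukin (2.11-fold, log2 1.08 ± 0.12, adjusted p = 0.000200), had -0.23 ± 0.12, adjusted p = 0.272 under hydrogen peroxide and differed between the treatments by 1.31 ± 0.12, adjusted p = 6.84e-05. Over the alternatives run, its interleukin change lay between 0.96 and 1.2, with the largest adjusted p 0.0144.

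P4ha1, the more widely expressed subunit, gave different answers by probe set. Its brighter probe set had 8936 and 11952 under interleukin, 8865 and 8537 under hydrogen peroxide, and 8068 and 9175 with vehicle, with both treatments overlapping vehicle, and did not pass (0.26 ± 0.13, adjusted p = 0.215 under interleukin, 0.02 ± 0.13, adjusted p = 0.963 under hydrogen peroxide). Without interleukin array 1 that probe set passed under interleukin (log2 0.47, adjusted p = 0.0307) and against hydrogen peroxide (log2 0.46, adjusted p = 0.0430). The other probe set had 6269 and 6393 under interleukin, 5488 and 6355 under hydrogen peroxide, and 8219.6 and 8034 with vehicle and fell under both treatments (log2 -0.36 ± 0.11, adjusted p = 0.0423 and -0.46 ± 0.11, adjusted p = 0.0323). P4ha1 is therefore left without a direction. P4ha3, a further subunit, had 2651 and 2355 under interleukin, 2849 and 2798 under hydrogen peroxide, and 1889 and 1278 with vehicle, with all treated arrays above both vehicle arrays. It rose under interleukin (log2 0.69 ± 0.18, adjusted p = 0.0258) and hydrogen peroxide (log2 0.86 ± 0.18, adjusted p = 0.0211). The interleukin call was lost with vehicle array 2 left out (adjusted p = 0.211), with interleukin array 1 left out (0.12) or with interleukin array 2 left out (0.0529). The hydrogen peroxide call was lost with vehicle array 2 left out (adjusted p = 0.163), with hydrogen peroxide array 1 left out (0.104) or with hydrogen peroxide array 2 left out (0.0726).

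The prolyl 3-hydroxylase P3h1, part of the complex that folds procollagen, had 1963 and 2122 under interleukin, 2054 and 1954 under hydrogen peroxide, and 2049.9 and 2263 with vehicle and passed in no comparison (interleukin -0.08 ± 0.13, adjusted p = 0.742). P3h2 had dim signals of 366 and 493 under interleukin, 283 and 282 under hydrogen peroxide, and 178 and 212 with vehicle, with all treated arrays above the vehicle arrays, and rose under interleukin (log2 1.13 ± 0.31, adjusted p = 0.0336), but not with no filter on signal (adjusted p = 0.0877), with vehicle array 1 left out (0.176), with vehicle array 2 left out (0.0998), with interleukin array 1 left out (0.0519) or with interleukin array 2 left out (0.156). Pcolce, a secreted protein that speeds removal of the procollagen tail, had 43956 and 47449.5 under interleukin, 37921 and 33992 under hydrogen peroxide, and 45865 and 44844 with vehicle. The hydrogen peroxide arrays lay below the others, whereas interleukin and vehicle overlapped. Pcolce fell under hydrogen peroxide (log2 -0.34 ± 0.08, adjusted p = 0.0331) and differed between the treatments by 0.35 ± 0.08, adjusted p = 0.0200. The first call was lost after quantile normalization (adjusted p = 0.0505), with no filter on signal (0.111), with vehicle array 1 left out (0.184), with vehicle array 2 left out (0.164), with hydrogen peroxide array 1 left out (0.0554) or with hydrogen peroxide array 2 left out (0.164). The second was lost with no filter on signal (adjusted p = 0.0772), with hydrogen peroxide array 2 left out (0.173) or with interleukin array 2 left out (0.0999).

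**Figure D3:**
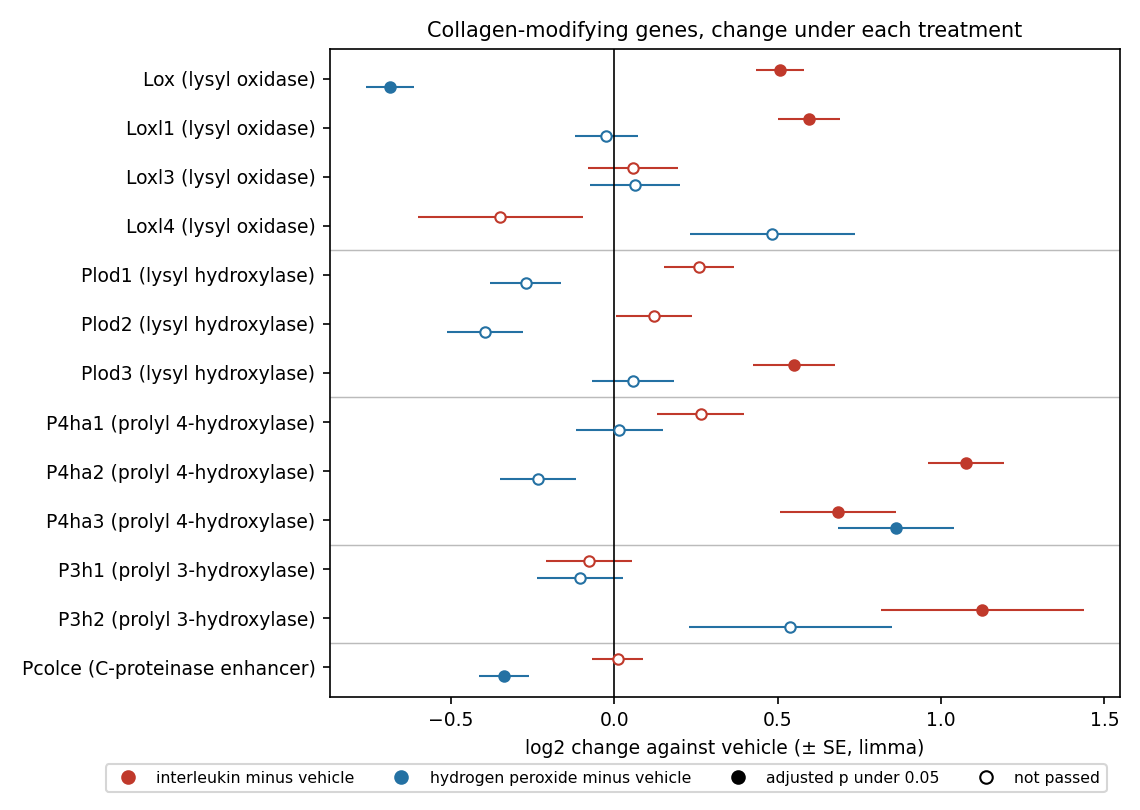
Log2 change against vehicle, with the limma SE, of the 13 tested enzyme and enhancer genes by class, interleukin and hydrogen peroxide each minus vehicle (2 arrays per group); filled points passed an adjusted p of 0.05. No gene is called lower under interleukin, and Lox lies on opposite sides under the treatments.

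The 19 member genes with several tested probe sets had 42 of them. All probe sets of a gene shared their call in 13 of the 19 genes under interleukin and in 13 under hydrogen peroxide. For interleukin against hydrogen peroxide they did so in 10. In 0 cases over the 3 comparisons were 2 probe sets of a gene called in opposite directions. The genes whose probe sets differed in call were Col1a2, Col6a2, Col12a1, Col18a1, Lox and P4ha1 under interleukin and Col1a2, Col14a1, Col23a1, Lox, P4ha1 and Pcolce under hydrogen peroxide. Between the treatments they were Col1a1, Col1a2, Col4a1, Col14a1, Col23a1, Lox, Loxl1, Plod1 and Pcolce. There the second probe sets of Col1a1 (0.37, adjusted p = 0.0765), Loxl1 (0.75, adjusted p = 0.112) and Pcolce (0.44, adjusted p = 0.0666) did not pass by limma. Of the genes called under interleukin, the brightest probe set changed by less than the other in Col3a1, Col5a2 and Loxl1, by more in Col6a2, Col12a1 and Col18a1, and lay between the other 2 in Lox. For Loxl1 the values were 0.60 and 1.06, and for Col12a1 0.88 and 0.35, brightest first. Among the dim tested probe sets were 1 of Col1a2 at 114 to 391 and 1 of Lox at 97.3 to 273, and they passed in no comparison.

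**Figure D4:**
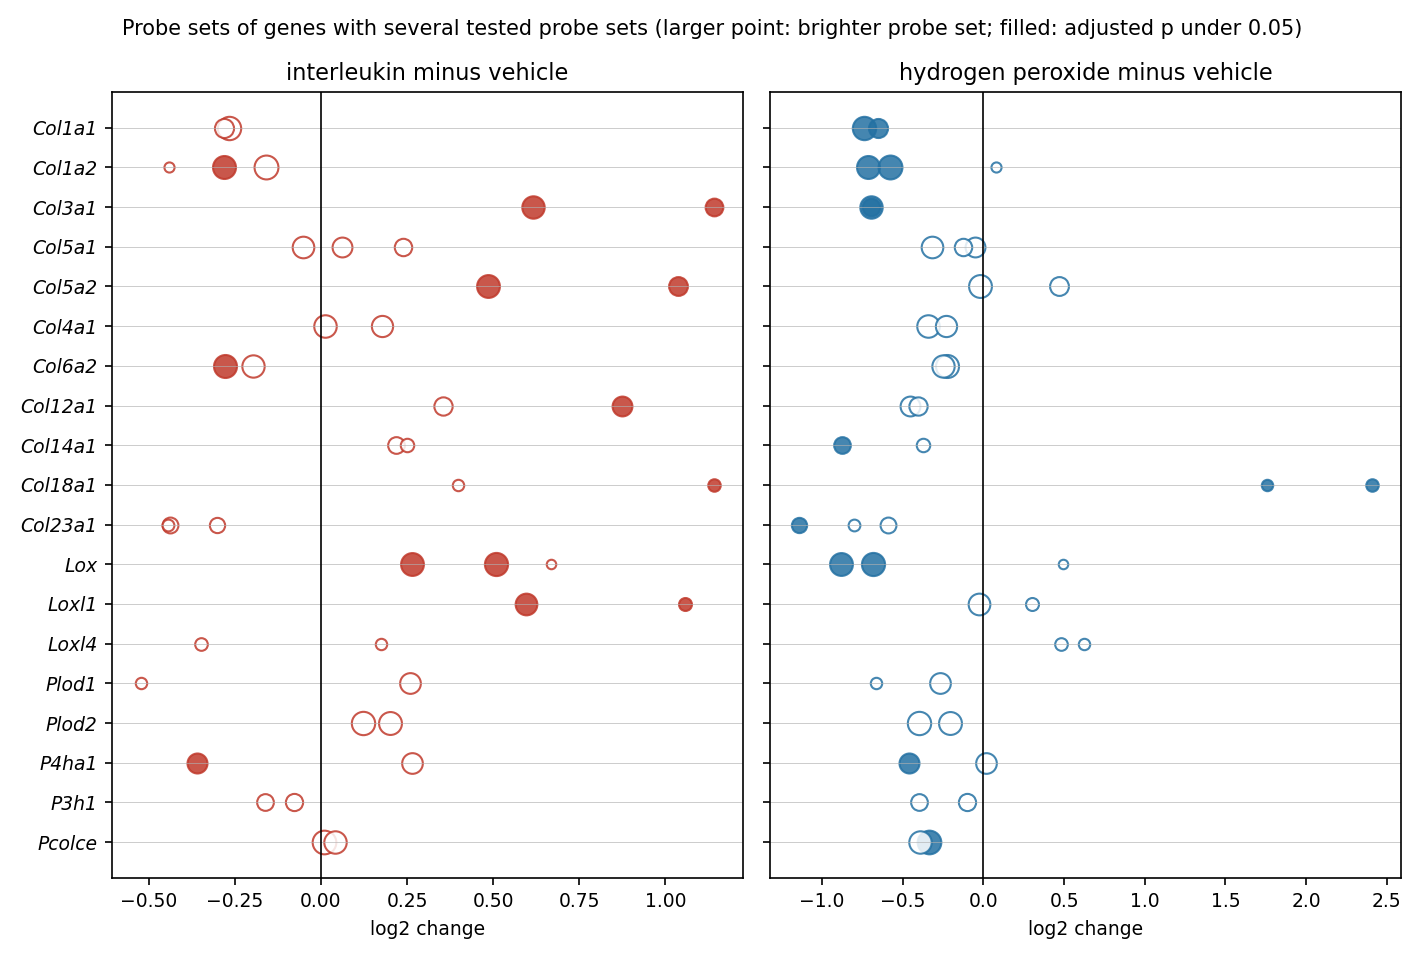
Log2 change of each tested probe set of the 19 member genes that have several, under interleukin (left) and hydrogen peroxide (right), each minus vehicle. Larger points are brighter probe sets and filled points passed an adjusted p of 0.05; the P4ha1 probe sets lie on opposite sides of 0 under interleukin.

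Of the member genes, 21 had no probe set bright enough to be tested. They were Col2a1, Col11a1 and Col24a1 of the fibrillar class, Col4a3, Col4a4, Col4a5 and Col4a6, Col6a4 and Col6a5, Col8a1 and Col10a1, Col9a1, Col9a2, Col9a3, Col19a1 and Col20a1, Col13a1, Col17a1 and Col25a1, Col26a1, and Pcolce2. Their 40 probe sets ranged from 2.20 to 260.4 with a median of 52.4. The 47 untested member probe sets include 7 of genes that were tested through another probe set. With no filter on signal, 1 of these 47 passed in a comparison. It belongs to Col8a1, a network collagen of vessel walls, with signals of 227 and 181 under interleukin, 164 and 152 under hydrogen peroxide, and 32 and 33.8 with vehicle, and it passed under interleukin (adjusted p = 0.0293) and not under hydrogen peroxide (adjusted p = 0.105). Its vehicle signals lay below the lower quartile of every array, so no fold is given. The brightest probe set of Col8a1, with 260.4 and 241 under interleukin, 162 and 224 under hydrogen peroxide, and 192 and 112 with vehicle, did not pass under interleukin (adjusted p = 0.425), and another had 7.80 to 33.9 over the 6 arrays. This probe set was singled out after the values were seen.

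Genes that handle collagen around the members were read from 6 lists written from general knowledge, each gene by its brightest probe set. Of 16 tested genes of procollagen folding and secretion 1 rose and 0 fell under interleukin and 0 passed under hydrogen peroxide, shares near those of all tested genes (9.78% higher and 6.61% lower under interleukin, 4.08% and 2.91% under hydrogen peroxide). Their median changes were 0.05 and -0.06. By limma 3 of the 16 had an unadjusted p under 0.05 under hydrogen peroxide. The gene that rose was Aldh18a1, an enzyme of proline synthesis, with 20027 and 16726 under interleukin, 14869 and 15222 under hydrogen peroxide, and 10841 and 12196 with vehicle (log2 0.67 ± 0.11, adjusted p = 0.00198 under interleukin). Crtap, a partner of P3h1, and P3h3, a prolyl 3-hydroxylase outside the rule for members, did not pass under interleukin (0.25 ± 0.09, adjusted p = 0.0937 and 0.38 ± 0.14, adjusted p = 0.0933), nor did Sec24d, part of the coat of export vesicles (-0.29 ± 0.09, adjusted p = 0.0529). The smallest p under hydrogen peroxide were those of Aldh18a1 (0.39 ± 0.11, adjusted p = 0.0582), the retrieval receptor Kdelr2 (-0.41 ± 0.13, adjusted p = 0.104), the transcription factor Creb3l1 (-0.26 ± 0.10, adjusted p = 0.147) and P3h3 (0.29 ± 0.14, adjusted p = 0.257), and none passed.

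More genes of propeptide removal and fibril assembly were called higher than lower under interleukin, and the calls under hydrogen peroxide were lower. Of 13 tested 6 rose and 1 fell under interleukin, and 0 rose and 5 fell under hydrogen peroxide (by limma, 0 higher and 7 lower at an unadjusted p under 0.05), with medians of 0.20 and -0.27, against 9.78% and 6.61% of all genes under interleukin and 4.08% and 2.91% under hydrogen peroxide. Adamts3, a protease that removes procollagen N-propeptides, had 7559 and 7686 under interleukin, 2760.5 and 2590.1 under hydrogen peroxide, and 4609.9 and 4744 with vehicle (log2 0.70 ± 0.11, adjusted p = 0.00149 under interleukin and -0.81 ± 0.11, adjusted p = 0.00274 under hydrogen peroxide). Decorin (Dcn), a proteoglycan that binds fibres, had 14682 and 17426 under interleukin, 3711 and 3112 under hydrogen peroxide, and 3905 and 4046 with vehicle and rose under interleukin (log2 2.01 ± 0.12, adjusted p = 4.31e-06). Dpt, a matrix protein that speeds fibre formation, had 26411 and 32405 under interleukin, 21025 and 16768 under hydrogen peroxide, and 42974 and 36865 with vehicle and fell under both treatments (log2 -0.44 ± 0.13, adjusted p = 0.0404 and -1.08 ± 0.13, adjusted p = 0.00173). Aebp1, a collagen-binding matrix protein, fell under hydrogen peroxide (log2 -0.34 ± 0.08, adjusted p = 0.0271), and Fbln1, which encodes fibulin, changed by 0.89 ± 0.12, adjusted p = 0.000883 under interleukin and -0.88 ± 0.12, adjusted p = 0.00380 under hydrogen peroxide. Biglycan (Bgn), a relative of decorin, rose under interleukin (0.37 ± 0.07, adjusted p = 0.00602).

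Collagen breakdown genes numbered 12 tested, of which 3 rose and 1 fell under interleukin and 1 rose and 1 fell under hydrogen peroxide (medians 0.17 and -0.10), against 9.78% and 6.61% of all tested genes under interleukin and 4.08% and 2.91% under hydrogen peroxide. With 12 genes, 1 gene is 8.33% of the list. The gelatinase Mmp2 did not pass, at log2 -0.22 under interleukin and -0.25 under hydrogen peroxide. The protease inhibitor Timp1 rose under interleukin (1.10 ± 0.11, adjusted p = 8.74e-05) and Timp2 fell under both treatments (-0.75 ± 0.07, adjusted p = 6.57e-05 under interleukin and -0.54 ± 0.07, adjusted p = 0.00244 under hydrogen peroxide). Ctsl, a lysosomal protease, rose under both (0.74 ± 0.11, adjusted p = 0.00181 and 0.63 ± 0.11, adjusted p = 0.0121). The plasminogen activator Plat rose under interleukin (0.45 ± 0.10, adjusted p = 0.0122), and Ctsb, another lysosomal protease, did not pass under hydrogen peroxide (-0.25 ± 0.08, adjusted p = 0.0860). Of 10 collagen receptors 4 rose and 1 fell under interleukin and 1 rose under hydrogen peroxide (medians 0.17 and -0.03), read against the same shares. Cd44, a surface receptor for hyaluronan that also binds collagen, rose under both (0.56 ± 0.09, adjusted p = 0.00207 and 0.68 ± 0.09, adjusted p = 0.00266), and the discoidin receptor Ddr1 under interleukin (0.57 ± 0.10, adjusted p = 0.00416). The syndecan Sdc4 rose and the integrin Itga6 fell under interleukin (0.63 ± 0.13, adjusted p = 0.00739 and -0.73 ± 0.13, adjusted p = 0.00446). Ddr1, Itga3 and Sdc1 did not pass under hydrogen peroxide (0.36, 0.46 and 0.26).

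Regulators of collagen transcription numbered 23 tested, of which 5 rose and 2 fell under interleukin and 0 passed under hydrogen peroxide by limma, with 4 at an unadjusted p under 0.05 (medians 0.11 and -0.02). The shares were 21.7% higher and 8.70% lower under interleukin and 0% under hydrogen peroxide, against 9.78% and 6.61% of all tested genes under interleukin and 4.08% and 2.91% under hydrogen peroxide. The growth factor Ccn2 rose 6.78-fold under interleukin (log2 2.76 ± 0.14, adjusted p = 8.82e-07), Skil, a repressor of TGF-beta signalling, rose (0.47 ± 0.12, adjusted p = 0.0259), and the ligand Tgfb3 fell (-0.92 ± 0.13, adjusted p = 0.00114). Mrtfa, a coactivator of serum response factor, rose too (0.52 ± 0.14, adjusted p = 0.0330). The smallest p under hydrogen peroxide were those of the transcription factors Ets1 (0.42 ± 0.11, adjusted p = 0.0530) and Sp1 (0.34 ± 0.10, adjusted p = 0.0756), of Tgfb3 (-0.43 ± 0.13, adjusted p = 0.0858) and of Ccn2 (-0.37 ± 0.14, adjusted p = 0.149). Hypoxia-induced genes, listed because several collagen enzymes belong among them, numbered 15 tested, of which 12 rose and 1 fell under interleukin and 2 rose and 1 fell under hydrogen peroxide (medians 0.75 and 0.06), read against the same shares. Adm, which encodes adrenomedullin, had 5708 and 5495 under interleukin, 1997 and 1548 under hydrogen peroxide, and 771 and 776 with vehicle, with the groups fully apart (log2 2.86 ± 0.15, adjusted p = 1.28e-06 under interleukin and 1.18 ± 0.15, adjusted p = 0.00236 under hydrogen peroxide). Bnip3, a mitochondrial protein, rose under interleukin (1.42 ± 0.10, adjusted p = 9.15e-06). The kinase Pdk1 and the glucose transporter Slc2a1 also rose under interleukin (1.23 ± 0.11, adjusted p = 6.29e-05 and 0.87 ± 0.10, adjusted p = 0.000236). Under hydrogen peroxide Pdk1 rose (0.49 ± 0.11, adjusted p = 0.0322), Egln3, an oxygen sensor, fell (-0.47 ± 0.11, adjusted p = 0.0411) and Slc2a1 did not pass (0.37 ± 0.10, adjusted p = 0.0511).

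**Figure D5:**
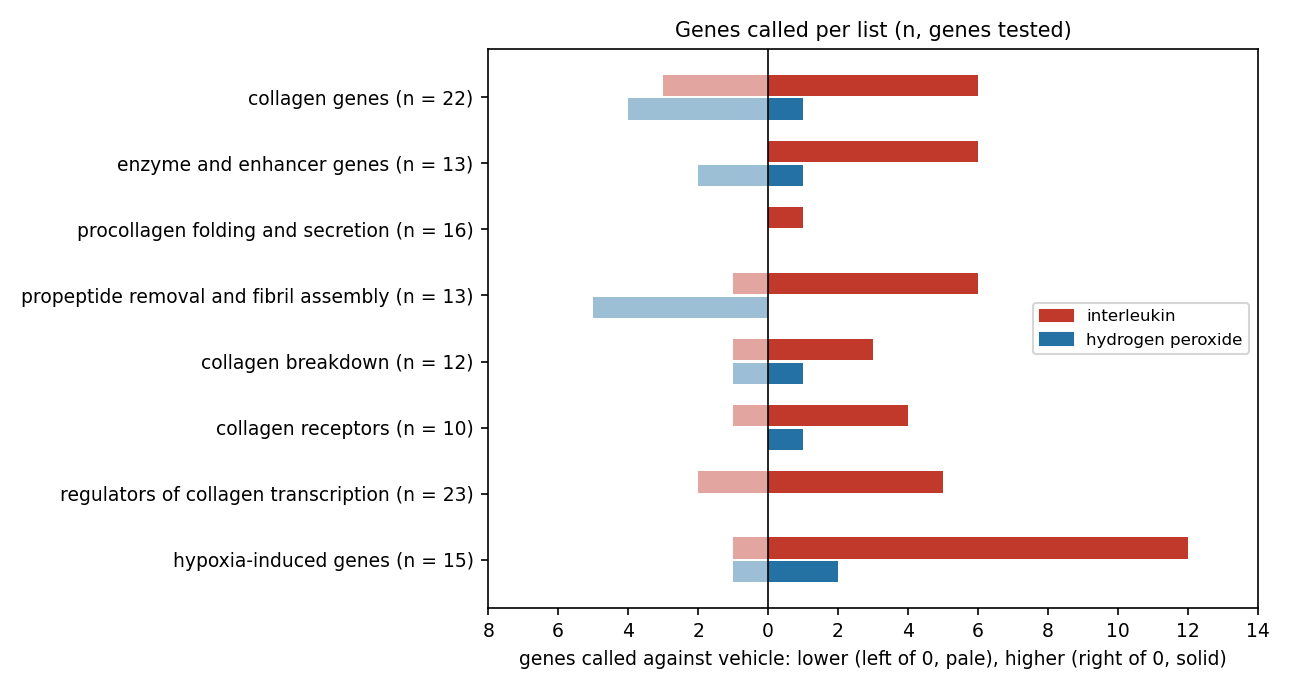
Number of tested genes called higher (right of 0, solid) and lower (left of 0, pale) against vehicle under interleukin and hydrogen peroxide, for the member collagens and enzymes and the 6 lists of related genes; n is the number of genes tested. Of the fibril assembly genes 6 are called higher and 1 lower under interleukin, and 5 lower with 0 higher under hydrogen peroxide.

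Markers of endothelial, leukocyte and epithelial cells were mostly too dim to be tested. Of the 7 endothelial markers only Kdr was bright enough to be tested (interleukin -0.60 ± 0.15, adjusted p = 0.0194), and Pecam1 reached at most 48.7. Among 7 leukocyte markers 3 were tested, Cd14 and Cd68 rose under interleukin (0.90 and 1.25) and Cd68 under hydrogen peroxide (1.04), and Ptprc, which defines leukocytes, ranged over 21.3 to 126, below the level set for testing. The remaining tested leukocyte marker had 0.11 under interleukin and did not pass. Of 8 epithelial markers 2 were tested, with log2 changes of -0.46 and -0.20 under interleukin that did not pass. Cdh1 reached at most 80.2. Of 9 fibroblast, pericyte and smooth muscle markers 5 were tested. They comprised Pdgfra with 41444 and 41618 under interleukin, 30005 and 31870.3 under hydrogen peroxide, and 30469.7 and 32116 with vehicle, Pdgfrb, Acta2, Tagln and Cspg4, and 4 of them rose under interleukin (Pdgfra 0.41 ± 0.07, adjusted p = 0.00373, Pdgfrb 0.56 ± 0.10, adjusted p = 0.00327, Acta2 0.99 ± 0.17, adjusted p = 0.00305, Tagln 1.56 ± 0.32, adjusted p = 0.00892) and by limma 0 passed under hydrogen peroxide, with 3 at an unadjusted p under 0.05. Cspg4 went the other way under interleukin, at log2 -0.63, and did not pass. The summed signal of a list was 8480.4 to 11939 under interleukin, 10902 to 11693 under hydrogen peroxide and 13542 to 15966 with vehicle for the endothelial markers. Most of this sum was Kdr, at 8069 and 11214 under interleukin, 11315 and 10461 under hydrogen peroxide, and 13235 and 15690 with vehicle. The sum was 6545 to 7288 under interleukin, 4520.1 to 4691 under hydrogen peroxide and 3819.7 to 3889 with vehicle for the leukocyte markers. Sums were 1174 to 1508 under interleukin, 1099.5 to 1217 under hydrogen peroxide and 1329.6 to 1425 with vehicle for the epithelial markers, and 66643 to 73840.5 under interleukin, 49160.3 to 50782 under hydrogen peroxide and 47618 to 48783 with vehicle for the fibroblast, pericyte and smooth muscle markers. The part of these markers in the collagen results was not tested.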

How the data were processed

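RNA of 6 samples, read as separate cultures, was measured on Affymetrix mouse arrays, 2 samples in each of 3 groups taken from the labels. The deposited values are intensity signals computed by the authors with MAS5, per the submitters' processing notes; its version and settings are not given in the sources used here. The signals were not normalised again, and the trimmed mean (2% from each end) was 1500.01 on every array. Of 45101 probe sets, 64 controls were left out; 34945 had 1 gene symbol, 932 several and 9160 none listed, and 34741 symbols were matched to the RefSeq table. Log2 signals of the 22519 probe sets at or above the median geometric mean were fitted in limma 3.58.1 (R 4.3.3) with all 3 groups and a variance trend on signal. The p-values were adjusted over all of them by the Benjamini-Hochberg method, and the fit was tested on simulated data. Every tested member gene is named, and its brightest probe set by mean log2 signal stands for it; of each list of related genes, up to 4 of smallest p in each comparison against vehicle are named. Members, lists and tests were chosen with earlier results of these data known. Each setting was also changed in turn: quantile normalised arrays, arrays centred at their 75th percentile, an added pseudocount of 32, the filter dropped or raised to the 60th percentile, no variance trend, only the 4 arrays compared, a replicate block, each array left out, the probe sets marked as matching several transcripts left out, 1 probe set per gene, and a minimum change of 2-fold. Precision is limited by the number of arrays.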

Additional observations from a re-analysis of the deposited data

How the results depend on the processing

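Of the called changes of member genes, none changed sign under any alternative run, but most alternatives could not have turned one. The filter, trend, block, 4-array, 1-probe-set and 2-fold settings leave the log2 change as it was. For called genes the compared groups did not overlap, so leaving out 1 array could not turn a sign either. Left out in turn, single arrays gave 7 to 12 member genes higher and 1 to 2 lower under interleukin (1554 to 3583 probe sets called in all), 1 to 2 higher and 4 to 7 lower under hydrogen peroxide (235 to 1751), and 9 to 17 higher and 1 to 2 lower for interleukin against hydrogen peroxide (839 to 1919), with the lone array of a group assumed to vary like the other groups. Without a variance trend the counts were 5 higher and 1 lower (1783), 1 and 0 (57), and 5 and 0 (716), in the same order of comparisons. A 2-fold minimum gave 4 and 0 (1040), 1 and 0 (291), and 5 and 1 (579). Without a filter they were 10 and 1 (2695), 2 and 5 (762), and 13 and 1 (1458). With the stricter filter 27 member genes were tested, and the counts were 10 and 4 (3555), 1 and 6 (1345), and 16 and 1 (2042). 1 probe set per gene gave 13 and 4 (2128), 2 and 10 (1270), and 17 and 3 (1534), and without shared-transcript probe sets hydrogen peroxide gave 825 calls. Some settings also differ in the number of probe sets tested or arrays used, and the cause of these shifts was not tested. The replicate block gave 12 and 4 (3342), 2 and 7 (1170), and 16 and 2 (1756); deviations of same-numbered arrays correlated at 0.107 for hydrogen peroxide and vehicle, 0.0535 for interleukin and vehicle, and -0.129 for interleukin and hydrogen peroxide, so the numbers are not taken to pair the cultures. The sign of 23 uncalled changes turned in some alternative, in each case without a call. Under interleukin against vehicle the ranges with 1 array left out were Col11a2 -0.0181 to 0.37, Col5a1 -0.16 to 0.0568, Col4a1 -0.14 to 0.16, Col8a2 -0.0823 to 0.46, Col22a1 -0.32 to 0.23, Col15a1 -0.61 to 0.17, Col7a1 -0.97 to 0.96, Loxl3 -0.14 to 0.25, Plod2 -0.0534 to 0.30 and Pcolce -0.0451 to 0.0652. A further value of turned sign was Col7a1 0.0365 with a pseudocount of 32. Under hydrogen peroxide against vehicle the ranges with 1 array left out were Col5a2 -0.13 to 0.0903, Col8a2 -0.22 to 0.31, Col22a1 -0.23 to 0.11, Loxl1 -0.10 to 0.0522, Plod3 -0.0709 to 0.19 and P4ha1 -0.0768 to 0.11. Further values of turned sign were Col5a2 0.0380 quantile normalised, Col8a2 -0.00590 centred at the 75th percentile, Loxl1 0.00710 quantile normalised and P4ha1 -0.0347 centred at the 75th percentile. For interleukin against hydrogen peroxide the ranges with 1 array left out were Col11a2 -0.59 to 0.0950, Col6a1 -0.0599 to 0.0143, Col22a1 -0.26 to 0.30, Col23a1 -0.0441 to 0.35, Col7a1 -1.58 to 0.35, Loxl3 -0.20 to 0.18 and P3h1 -0.0292 to 0.0831. Further values of turned sign were Col6a1 0.0179 centred at the 75th percentile, Col22a1 -0.0619 quantile normalised, Loxl3 0.0180 quantile normalised and Loxl3 0.0332 centred at the 75th percentile. MAS5 signals carry no detection calls here, so dim probe sets, such as those of Col18a1 and Col27a1, are bounded only by the level set for testing.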
